A study of Homo sapiens with 16 samples.

Results

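The genes described here encode core proteins of the spliceosome and the heterogeneous nuclear ribonucleoproteins (hnRNPs). They were taken by gene symbol, as every row of the read count tables whose gene symbol begins with SNRP, SF3A, SF3B, HNRNP, HNRP, SRSF, SFRS, PRPF or U2AF. This gave 77 genes of the 20314 in the U251 tables and 80 of the 20626 in the U343 tables, the additional genes being SFRS3, SFRS6 and PRPF38B. U251 and U343 are established human glioblastoma cell lines. Cells were transfected with a mimic of the microRNA miR-137 or with a control mimic, each at 25 nM, and RNA was collected after 48 h. RNASeq measured total RNA, and RIPSeq measured RNA recovered with a mix of antibodies to the poly(A)-binding protein PABP, which binds the tails of mRNAs. Every combination of line, assay and mimic had 2 libraries, 16 in all, and every comparison is a transfected line against the same line with the control mimic unless stated otherwise. Both lines stand for tumour cells in culture, and the mimic puts the microRNA into the cells from outside, at a dose set by the experimenter.

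The spliceosome removes introns from pre-mRNA. It is assembled from small nuclear ribonucleoproteins (snRNPs), each a small RNA with a ring of shared Sm proteins and proteins of its own. The U1 snRNP recognises the 5′ splice site, U2AF and the U2 snRNP with SF3A and SF3B recognise the branch point and the 3′ splice site, and the tri-snRNP with several PRPF proteins joins to form the catalytic machine. SR proteins, written with the older SFRS symbols in these tables, mostly promote the use of nearby exons, and hnRNPs bind pre-mRNA and often counteract them. MiR-137 is a microRNA abundant in neurons and known to be reduced in glioblastoma, and microRNAs generally lower mRNAs that pair with their seed.

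The sequence of the transfected microRNA is shown because it defines the treatment. The RefSeq record (GRCh38.p14, chr1:98046091-98046113, minus strand) gives the mature strand of 23 bases below, with the seed, bases 2 to 8, in capitals.
hsa-miR-137-3p: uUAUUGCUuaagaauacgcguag
A perfect match to this seed in an mRNA reads AGCAAUA. Whether the genes carry such matches in their 3′ ends was not analysed here.

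The libraries held 10156675 to 18224061 counted reads in U251 RNASeq, 22359794 to 30731476 in U251 RIPSeq, 37952273 to 45134766 in U343 RNASeq and 37736206 to 45055184 in U343 RIPSeq. The U251 RIPSeq control libraries stood apart from one another: the median gene differed between them by 0.64 on the log2 scale, against 0.06 between the miR-137 libraries of the same experiment, and the median member by 0.61. VIM and CD44, which are high in glioblastoma lines, were at 3631 to 7821 and 2167 to 3630 CPM (counts scaled to library size) in U251 total RNA. The astrocyte marker GFAP was at 3.64 to 29.5 CPM in U251 and at 3227 to 4701 CPM in U343, OLIG2 was near 0 in both lines, and 4 immune markers and ALB stayed under 1.5 CPM. S100B, also an astrocyte marker, was low in both, at 0.195 to 1.60 CPM in U251 and 2.19 to 10.5 CPM in U343. PDGFRA was at 165 to 254 CPM in U251 and 0.790 to 2.90 CPM in U343, and the epithelial marker KRT19 at 3.32 to 6.14 CPM in U251. Of the endothelial markers, CDH5 and VWF reached 27.2 and 28.9 CPM in U343. The lines were also prepared with different cDNA chemistries, so that line and preparation cannot be told apart. How reads on overlapping genes were assigned was not given. SNRPN, which shares its transcript with SNURF, had 0 reads in all 8 U251 libraries and 3853 to 8044 in U343, and SNURF had 5 to 41 reads in U251 and 3854 to 8047 in U343. HNRPA1L-2, which lies inside HNRNPA1, had 0 to 1 reads in U251 and 1862 to 3402 in U343, while HNRNPA1 had 257 to 828 and 2037 to 3915. For SNRPN, low expression in U251 and the counting of overlaps cannot be told apart. HNRPA1L-2 had almost no reads in U251 while the gene around it had 257 to 828. Its U251 reads are therefore not taken as its expression, and how they were assigned was not tested. With 2 libraries a group, and no label that ties them to separate cultures, p-values measure only the spread between these libraries, and in bulk samples fewer cells of a type and less RNA per cell cannot be told apart.

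Together the genes took close to 1% of all counted reads. In U343 total RNA their share was 1.08% and 1.06% in the control libraries and 0.891% and 0.848% after miR-137. In U343 PABP-bound RNA the share was 1.07% and 1.09% against 0.869% and 0.940%. The groups did not overlap in U343, with the miR-137 libraries lower in both assays. U251 total RNA went the other way, with 1.08% and 1.05% in control and 1.14% and 1.19% after miR-137. U251 PABP-bound RNA had 1.09% and 0.940% in control and 0.999% and 0.997% after miR-137, which lie inside the control range. An exact two-sided permutation test of 2 libraries against 2 cannot go below p = 0.333, the value reached in the 3 experiments without overlap, so these shares are given as a description.

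**Figure D1:**
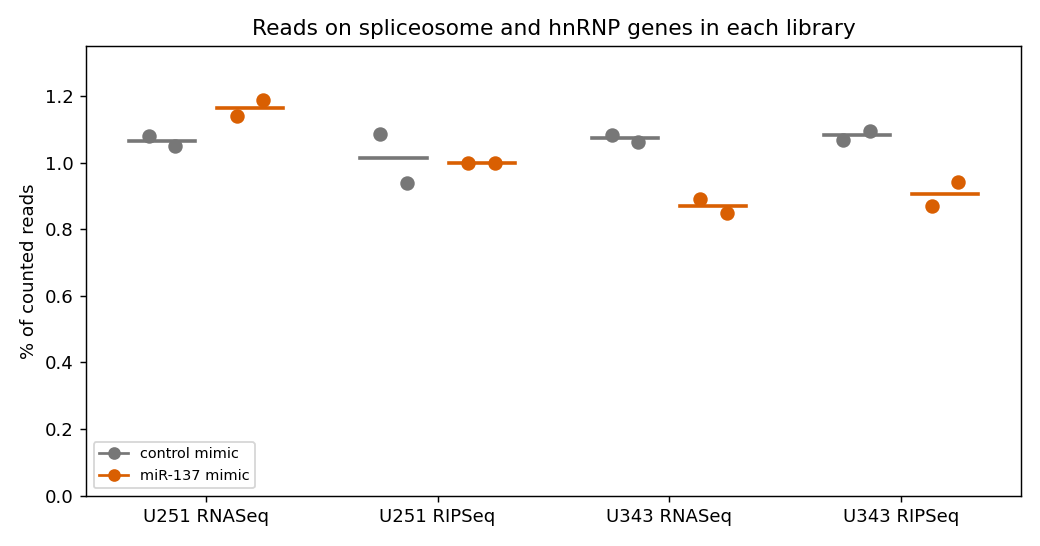
Reads on spliceosome and hnRNP genes as a percentage of all counted reads. Points are single libraries of each cell line and assay, horizontal lines are means of 2 libraries, and the y axis starts at 0. The U343 miR-137 libraries lie between 0.848% and 0.940%, below the U343 controls at 1.06% to 1.09%.

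In U343, miR-137 was followed mostly by falls among these genes. In PABP-bound RNA 34 of the 80 genes fell and 7 rose, and in total RNA 15 fell and 1 rose, by edgeR's quasi-likelihood test at an adjusted p of 0.05. The share of all tested genes that fell in U343 RIPSeq was 27.8% and the share that rose 28.5%, against 42.5% and 8.75% of the members. In U343 RNASeq 11.7% of all genes fell and 8.31% rose, against 18.8% and 1.25% of the members. The median log2 fold change of the members was -0.16 in PABP-bound RNA and -0.23 in total RNA, beside 0.00 and 0.02 over all genes. All 15 genes that fell in U343 total RNA were among the 34 that fell in PABP-bound RNA, and SNRPA1, the gene that rose in total RNA, was among the 7 that rose. Over the 14631 genes tested in both U343 assays, 92.3% of those that fell in total RNA also fell in PABP-bound RNA, and 86.8% of those that rose also rose. As a share of the longer lists, the 15 are 44.1% of the members that fell in PABP-bound RNA, beside 39.4% over all genes. One of the 15, HNRPA1L-2, lies inside HNRNPA1, so these names are not independent.

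The U343 total RNA calls depended on single libraries. Without control library 1 or 2, 0 of the members passed edgeR's test, as did 0 of all 15426 and 15539 genes tested in these fits, against 32 at an unadjusted p under 0.05 with all libraries and 22 lower and 2 higher with DESeq2. Without miR-137 library 1 or 2 the count of lower members was 29 and 26, and of higher members 3 and 4. The miR-137 libraries of this experiment were further apart than the controls, with a median difference over all genes of 0.22 against 0.10 on the log2 scale. In U343 PABP-bound RNA 22 to 27 members stayed lower and 4 to 6 higher when any library was left out, the 22 without control library 1 and the 4 without miR-137 library 2.

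U251 total RNA showed falls and rises in like numbers. Of 73 tested members 21 fell and 22 rose, or 28.8% and 30.1%, beside 29.0% lower and 28.7% higher over all genes, and the median was 0.02 for the members and for all genes. The 4 genes not tested, SNRPN, HNRPA1L-2, HNRNPCL1 and HNRNPA3P1, had too few reads. With upper-quartile factors in place of TMM the split became 14 lower and 30 higher, while the median of all genes moved from 0.02 to 0.16, and in a joint fit of all 8 U251 libraries 4 were lower and 8 higher. The joint fit ended the U251 total RNA calls given below for SFRS1, HNRNPUL2, SNRPA1, SNRPA, HNRNPA1, SNRPG and HNRNPM, with edgeR adjusted p-values of 0.0541 for HNRNPUL2 to 0.112 for HNRNPA1, and for SNRPA1 and HNRNPA1 so did using no filter, at 0.105 and 0.0581. Without control library 2 the count was 12 lower and 15 higher.

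In U251 PABP-bound RNA 1 member, SNRPC, rose and 0 fell by edgeR, while 13 had an unadjusted p under 0.05, and DESeq2 called 2 in each direction. Over all genes 0.944% rose and 0.263% fell. Leaving out control library 1 gave 28 lower and 33 higher members, and leaving out control library 2 gave 30 lower and 35 higher. Over all genes these fits called 5052 lower and 4689 higher of 14309, and 5366 lower and 6304 higher of 15682. Without either miR-137 library 0 members passed. Values from this experiment are therefore given per library.

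**Figure D2:**
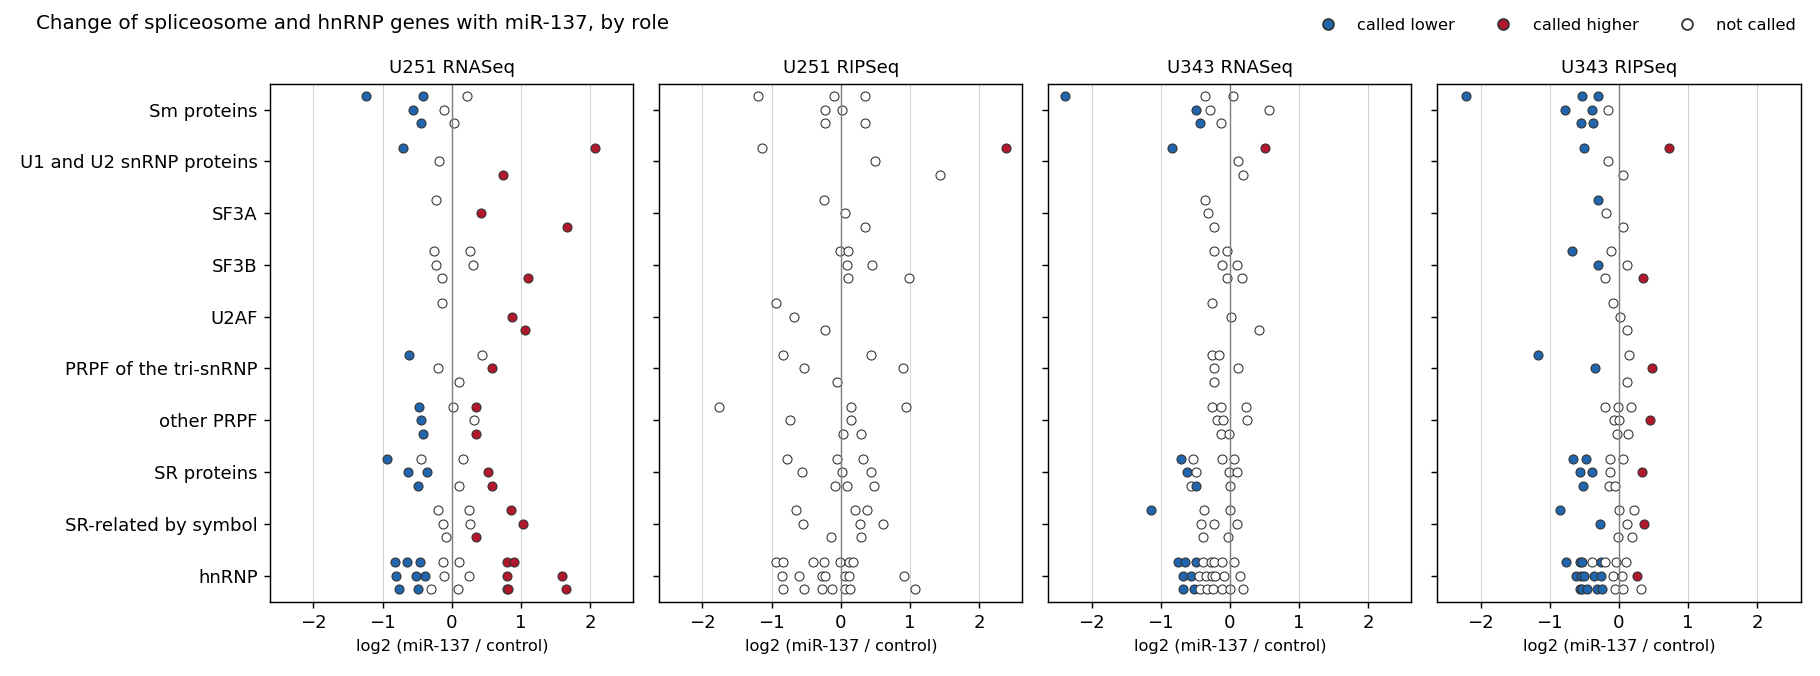
Log2 fold change of miR-137 against control for every tested member, with 1 panel for each cell line and assay and genes grouped by role on the y axis. Blue points were called lower, red points higher and white points not called by edgeR at an adjusted p of 0.05. In U343 RIPSeq 34 points are blue and 7 are red, and in U251 RNASeq 21 are blue and 22 are red.

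The Sm proteins, which form the ring around the RNAs of the U1, U2, U4 and U5 snRNPs, fell wherever they passed the test. Of the 8 genes, 7 fell in U343 PABP-bound RNA and 3 in U343 total RNA, and 4 of 7 tested fell in U251 total RNA. The median log2 fold changes of the group were -0.46, -0.32 and -0.41. Over all genes 27.8%, 11.7% and 29.0% fell in these experiments. SNRPE, which encodes the Sm protein E (hg18, chr1:202097363-202106903), had the largest fall of all members in these 3 experiments. Its level in U343 total RNA was 57.2 and 58.4 CPM in the control libraries and at 10.5 and 11.6 CPM after miR-137, a log2 fold change of -2.39 ± 0.11 (SE, n = 2 against 2, edgeR adjusted p = 0.00647). Its level in U343 PABP-bound RNA was 55.2 and 57.1 against 12.0 and 12.3 CPM, a change of -2.21 ± 0.09 (edgeR adjusted p = 1.98e-06). The miR-137 libraries of both assays were thus far below the control libraries, with no overlap. In U251 total RNA SNRPE was at 22.3 and 26.1 CPM in control and at 8.93 and 11.4 CPM after miR-137, a change of -1.25 ± 0.17 (edgeR adjusted p = 4.38e-05). Its level in U251 PABP-bound RNA was 12.3 and 14.9 against 5.82 and 6.11 CPM, a difference of -1.19 ± 0.25 with an edgeR adjusted p of 0.113. The miR-137 libraries were below the controls in all 4 experiments. Without U343 RNASeq control library 1 or 2 the SNRPE change in that experiment was -2.39 or -2.37, with an edgeR adjusted p of 0.151 or 0.17.

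A second Sm gene, SNRPG, showed smaller differences. SNRPG was at 57.5 and 62.7 CPM against 42.5 and 43.4 CPM in U343 total RNA, a log2 change of -0.49 ± 0.09 (edgeR adjusted p = 0.0334). For U343 PABP-bound RNA the values were 47.4 and 43.9 against 27.1 and 26.3 CPM, a change of -0.78 ± 0.09 (edgeR adjusted p = 0.000211). Its level in U251 total RNA was 18.5 and 22.7 against 14.1 and 13.8 CPM, a change of -0.56 ± 0.16 (edgeR adjusted p = 0.00901). The groups did not overlap in any of these, but in U251 PABP-bound RNA the miR-137 libraries, at 16.2 and 17.0 CPM, were above the controls at 12.1 and 13.9 CPM, without passing the test. The U251 total RNA call was lost without control library 2, at -0.41 with an adjusted p of 0.0883, and the U343 total RNA call without either control library, at -0.54 and -0.42 with adjusted p-values of 0.242 and 0.317.

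The 4 proteins particular to the U1 and U2 snRNPs did not move together. SNRPC encodes the U1-C protein, which helps the U1 snRNP hold the 5′ splice site (hg18, chr6:34832849-34849611). For U251 total RNA the values were 14.8 and 17.2 CPM in control and at 59.6 and 74.5 CPM after miR-137, the largest rise of any member there at 2.07 ± 0.16 on the log2 scale (edgeR adjusted p = 1.91e-07). For U251 PABP-bound RNA the values were 21.2 and 17.5 against 101 and 102 CPM, a rise of 2.39 ± 0.26 (edgeR adjusted p = 0.041). SNRPC was the 1 member to pass the test there, and the call was lost without miR-137 library 1 or 2, at 2.44 or 2.43 with an adjusted p of 0.266 or 0.286, and with upper-quartile factors or no filter, at 0.0569 and 0.0629. U343 showed no such rise. SNRPC was at 51.0 and 56.4 against 61.9 and 60.7 CPM in U343 total RNA, a difference of 0.19 ± 0.10 (edgeR adjusted p = 0.227). In U343 PABP-bound RNA it was at 68.1 and 69.4 against 64.1 and 59.8 CPM, a difference of -0.15 ± 0.08 (edgeR adjusted p = 0.147).

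SNRPA1 encodes the U2 snRNP protein A′ (hg18, chr15:99639238-99652983) and was the member that rose in 3 experiments. Its level in U343 PABP-bound RNA was 20.5 and 21.7 CPM in control and at 36.3 and 33.8 CPM after miR-137, a rise of 0.73 ± 0.09 (edgeR adjusted p = 0.000377). For U343 total RNA the values were 25.7 and 25.5 against 38.6 and 34.4 CPM, a rise of 0.51 ± 0.11 (edgeR adjusted p = 0.0397). In U251 total RNA it was at 30.7 and 18.6 against 36.5 and 46.2 CPM, a rise of 0.75 ± 0.20 (edgeR adjusted p = 0.00656). In U251 PABP-bound RNA the miR-137 libraries were both at 37.1 CPM, above the controls at 15.9 and 11.5 CPM, with an edgeR adjusted p of 0.103. The miR-137 libraries were above the controls in all 4 experiments. The U251 total RNA call was lost without control library 2, at 0.42 with an adjusted p of 0.0657, and the U343 total RNA call without either control library, at 0.52 and 0.51 with adjusted p-values of 0.298 and 0.313.

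SNRPA, which encodes the U1-A protein, fell where SNRPA1 rose. In U343 total RNA SNRPA was at 79.1 and 85.4 CPM against 44.1 and 48.0 CPM, a fall of 0.84 on the log2 scale with an SE of 0.10 (edgeR adjusted p = 0.0126). Its level in U251 total RNA was 103 and 111 against 62.3 and 69.4 CPM, a change of -0.70 ± 0.13 (edgeR adjusted p = 0.000415). For U343 PABP-bound RNA the values were 125 and 140 against 92.4 and 94.6 CPM, a change of -0.50 ± 0.09 (edgeR adjusted p = 0.00215). In U251 PABP-bound RNA it was at 272 and 180 against 98.5 and 107 CPM, a difference of -1.14 ± 0.29 that did not pass (edgeR adjusted p = 0.147). The groups did not overlap in any experiment. SNRPB2, the remaining gene of this group, was not called in any of the 4. Without U343 RNASeq control library 1 or 2 the SNRPA change in that experiment was -0.88 or -0.78, with an adjusted p of 0.169 or 0.199.

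**Figure D3:**
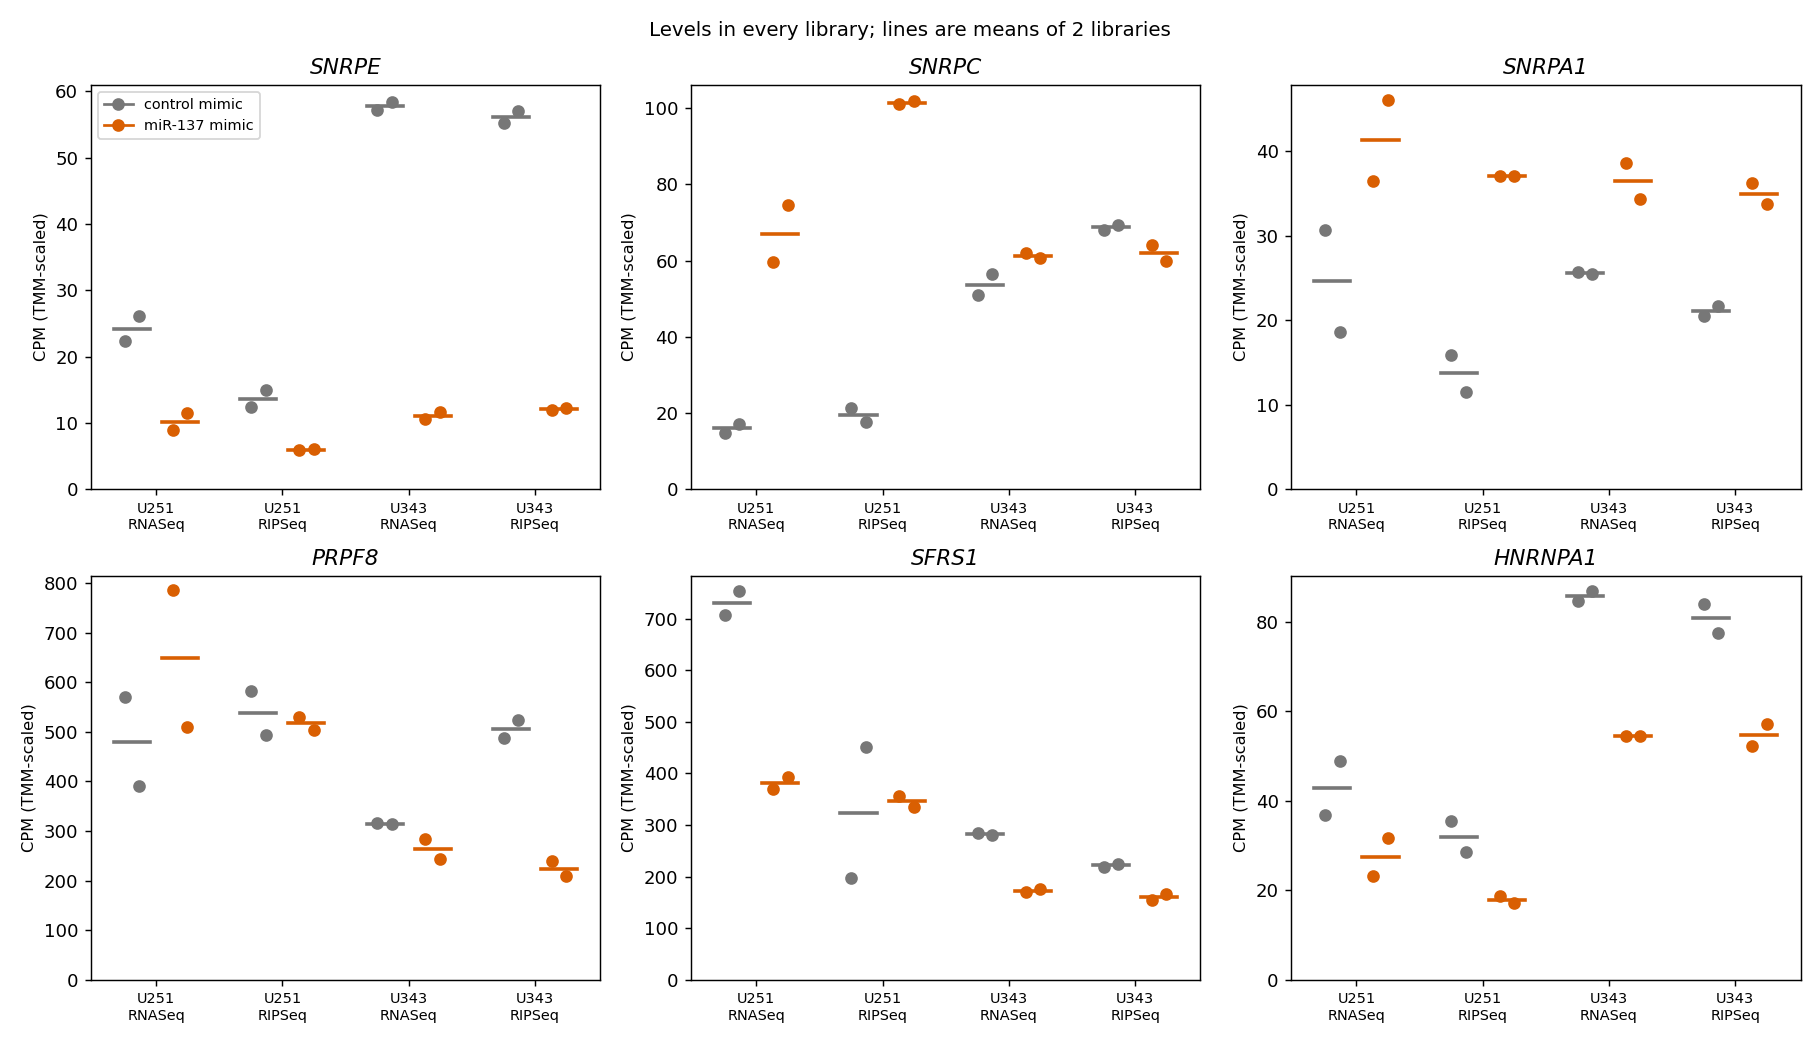
Levels of SNRPE, SNRPC, SNRPA1, PRPF8, SFRS1 and HNRNPA1 in all 16 libraries, in CPM on TMM-scaled library sizes, with 1 panel for each gene. Points are libraries, lines are means of 2, grey marks the control mimic and orange the miR-137 mimic, and y axes start at 0. SNRPE is below its controls and SNRPA1 above its controls in all 4 experiments, while SNRPC rises in U251 and not in U343.

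Genes of the branch point machinery, SF3A, SF3B and U2AF, rose in U251 total RNA where they passed the test. There 2 of 3 SF3A, 1 of 6 SF3B and 2 of 3 U2AF genes rose, with group medians of 0.43, 0.07 and 0.88. Of the U2AF genes that rose, U2AF1 was at 16.2 and 10.2 against 16.2 and 32.2 CPM, and U2AF1L4 had only 26 to 45 reads. Over all genes 28.7% rose in U251 total RNA. In U343 total RNA 12 genes of these groups were tested and 12 were not called, and in U343 PABP-bound RNA 3 fell and 1 rose. Over all genes 27.8% fell and 28.5% rose in U343 PABP-bound RNA, so the falls were near that share. SF3A2, a subunit of the SF3A complex of the U2 snRNP, was at 16.5 and 10.5 CPM in U251 control total RNA and at 34.2 and 51.9 CPM after miR-137, a rise of 1.68 ± 0.22 (edgeR adjusted p = 2.83e-05). In U343 total RNA it was at 13.7 and 17.7 against 13.2 and 12.2 CPM, a difference of -0.31 ± 0.17 (edgeR adjusted p = 0.269). SF3B4, a subunit of SF3B, was at 29.8 and 33.6 against 58.4 and 78.3 CPM in U251 total RNA, a rise of 1.11 ± 0.16 (edgeR adjusted p = 4.84e-05). SF3B4 was also the SF3B gene that rose in U343 PABP-bound RNA.

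Of the 5 PRPF genes of the tri-snRNP 2 fell and 1 rose in U343 PABP-bound RNA, where PRPF8 stood out. In U251 total RNA 1 fell and 1 rose, and in U343 total RNA 0 were called in either direction. PRPF8 encodes the large protein at the catalytic centre of the spliceosome (hg18, chr17:1500673-1534926). It was at 488 and 524 CPM in the controls and at 240 and 208 CPM after miR-137, a fall of 1.17 on the log2 scale with an SE of 0.11 (edgeR adjusted p = 9.04e-05). The U343 total RNA libraries had PRPF8 at 316 and 314 against 283 and 244 CPM, a difference of -0.26 ± 0.11 (edgeR adjusted p = 0.178). U251 total RNA had 570 and 390 against 786 and 510 CPM, and U251 PABP-bound RNA had 583 and 494 against 530 and 504 CPM, so the groups overlapped in both. The difference between the PABP-bound and the total RNA change in U343 was -0.91 ± 0.16 and did not pass edgeR's interaction test (adjusted p = 0.196). PRPF3, a U4/U6 snRNP protein, rose in U343 PABP-bound RNA from 61.6 and 64.7 to 85.6 and 91.2 CPM, by 0.49 ± 0.08 (edgeR adjusted p = 0.00162). It also rose in U251 total RNA, from 94.5 and 97.6 to 147 and 141 CPM, by 0.58 ± 0.12 (edgeR adjusted p = 0.00119). Of the 8 other PRPF genes 0 fell and 1 rose in U343 PABP-bound RNA and 0 were called in U343 total RNA. In U251 total RNA 3 of 7 fell and 2 rose. PRPF4B, of this other group, is a kinase that phosphorylates spliceosome proteins. It rose in U343 PABP-bound RNA from 35.6 and 33.3 to 45.7 and 48.8 CPM, by 0.46 ± 0.09 (edgeR adjusted p = 0.00285).

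More SR proteins were called lower than higher, in a small group. Of 11 genes, 5 fell and 1 rose in U343 PABP-bound RNA and 3 fell in U343 total RNA, with medians of -0.14 and -0.49, and of 9 tested in U251 total RNA 4 fell and 2 rose. Over all genes 27.8% fell and 28.5% rose in U343 PABP-bound RNA. The shares were 11.7% and 8.31% in U343 total RNA and 29.0% and 28.7% in U251 total RNA. In groups this small a few genes make up the difference. SFRS1 encodes SRSF1, the founding SR protein (hg18, chr17:53433279-53439706). For U251 total RNA the values were 707 and 753 CPM in control and at 370 and 393 CPM after miR-137, a fall of 0.94 on the log2 scale with an SE of 0.14 (edgeR adjusted p = 6.99e-05). Its level in U343 total RNA was 284 and 281 against 170 and 176 CPM, a change of -0.71 ± 0.09 (edgeR adjusted p = 0.0142). In U343 PABP-bound RNA it was at 219 and 225 against 154 and 167 CPM, a change of -0.47 ± 0.09 (edgeR adjusted p = 0.00286). The SFRS1 controls of U251 PABP-bound RNA were at 196 and 450 CPM and enclosed the miR-137 libraries at 356 and 335 CPM. Without U343 RNASeq control library 1 or 2 the SFRS1 change in U343 total RNA was -0.69 or -0.71, with an adjusted p of 0.197 or 0.202.

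A further 8 genes carry SFRS symbols without being classical SR proteins. Of these 2 fell and 1 rose in U343 PABP-bound RNA, 1 fell in U343 total RNA and 3 rose in U251 total RNA. SFRS12IP1, which encodes a partner of the SR-related protein SREK1, was at 15.2 and 13.6 CPM in U343 control total RNA and at 6.05 and 7.0 CPM after miR-137, a change of -1.14 ± 0.16 (edgeR adjusted p = 0.0163). Its level in U343 PABP-bound RNA was 7.85 and 5.21 against 3.66 and 3.57 CPM, a change of -0.85 ± 0.21 (edgeR adjusted p = 0.00966). In U251 total RNA it was at 28.4 and 24.7 against 28.1 and 20.4 CPM, so the groups overlapped. The gene overlaps FAM159B, and its U343 calls were lost without RNASeq control library 1 or 2, at -1.05 or -1.22 with an adjusted p of 0.206 or 0.196, and without RIPSeq control library 1, at -0.53 with an adjusted p of 0.0614. SFRS15, now named SCAF4, which binds the tail of RNA polymerase II, rose in U251 total RNA from 30.1 and 22.5 to 52.5 and 55.2 CPM, by 1.03 ± 0.15 (edgeR adjusted p = 7.78e-05).

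The hnRNPs were the largest group, and in U343 those that passed the test mostly fell. Of 24 genes 14 fell and 1 rose in U343 PABP-bound RNA, and 7 fell in U343 total RNA, with medians of -0.28 and -0.30. Over all genes 27.8% fell and 28.5% rose in the first, and 11.7% fell in the second. HNRPA1L-2, which lies inside HNRNPA1, is among the 24, the 14 and the 7, so these counts are not of independent genes. In U251 total RNA 8 of 21 fell and 7 rose. HNRNPA1 encodes one of the most abundant hnRNPs, a repressor of many exons (hg18, chr12:52960755-52965297). It was at 84.8 and 86.9 against 54.6 and 54.5 CPM in U343 total RNA, a change of -0.65 ± 0.08 (edgeR adjusted p = 0.0137). For U343 PABP-bound RNA the values were 84.1 and 77.6 against 52.2 and 57.1 CPM, a change of -0.57 ± 0.09 (edgeR adjusted p = 0.00114). Its level in U251 total RNA was 36.9 and 48.9 against 23.2 and 31.6 CPM, a change of -0.65 ± 0.18 (edgeR adjusted p = 0.0066). HNRNPA1 in U251 PABP-bound RNA was at 35.5 and 28.5 against 18.6 and 17.2 CPM, with an adjusted p of 0.19. The miR-137 libraries were below the controls in every experiment. HNRPA1L-2, inside HNRNPA1, had 0 to 1 reads in U251 and 1862 to 3402 in U343. The HNRNPA1 counts of the lines may therefore not cover the same reads, and those of U251 may leave out part of the gene.

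HNRNPH1 and HNRNPAB showed the same order of libraries. HNRNPH1, which binds G-rich sequence near exons, was at 286 and 321 against 167 and 178 CPM in U251 total RNA, a change of -0.82 ± 0.13 (edgeR adjusted p = 0.000152). It was at 252 and 260 against 180 and 185 CPM in U343 total RNA, a change of -0.49 ± 0.09 (edgeR adjusted p = 0.0305). PABP-bound U343 RNA had HNRNPH1 at 319 and 315 against 247 and 250 CPM, a change of -0.35 ± 0.09 (edgeR adjusted p = 0.0105). HNRNPAB, an RNA-binding protein of the A/B type whose gene overlaps AGXT2L2, changed by -0.81 ± 0.14 in U251 total RNA, -0.68 ± 0.12 in U343 total RNA and -0.53 ± 0.08 in U343 PABP-bound RNA (edgeR adjusted p = 0.000349, 0.026 and 0.00126). Its control libraries were at 141 to 199 CPM and its miR-137 libraries at 81.7 to 122 CPM in these experiments. Without control library 1 or 2 the U343 total RNA calls were lost for HNRNPA1 (-0.66 or -0.64, adjusted p 0.194 or 0.212), HNRNPH1 (-0.50 or -0.47, 0.262 or 0.291) and HNRNPAB (-0.68 or -0.67, 0.222 or 0.237). The HNRNPH1 call in U343 PABP-bound RNA was also lost without either control library, at -0.35 and -0.37 with adjusted p-values of 0.0739 and 0.0607.

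Other hnRNPs rose in U251 total RNA. HNRNPR was at 185 and 197 CPM in control and at 348 and 366 CPM after miR-137, a rise of 0.90 ± 0.13 (edgeR adjusted p = 6.01e-05). HNRNPUL2 was at 14.7 and 6.91 against 29.1 and 39.1 CPM, a rise of 1.66 ± 0.26 (edgeR adjusted p = 0.000117). HNRNPUL2 was also the hnRNP that rose in U343 PABP-bound RNA, from 49.0 and 44.3 to 55.0 and 56.4 CPM. HNRNPM was the 1 member called in opposite directions in the total RNA of the lines. It rose in U251 from 52.8 and 42.8 to 69.5 and 96.6 CPM, by 0.80 ± 0.17 (edgeR adjusted p = 0.00106), and fell in U343 from 120 and 130 to 91.9 and 83.2 CPM, a change of -0.52 ± 0.11 (edgeR adjusted p = 0.0372). HNRNPM in U343 PABP-bound RNA changed by -0.62 ± 0.08 (edgeR adjusted p = 0.000537). The U343 total RNA call for HNRNPM was lost without control library 1 or 2, at -0.57 or -0.46 with an adjusted p of 0.233 or 0.296, and with upper-quartile factors, at -0.48 with an adjusted p of 0.0531.

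Across the 4 experiments 9 members fell in 3, namely HNRNPA1, HNRNPAB, HNRNPH1, HNRNPU, SFRS1, SNRPA, SNRPD1, SNRPE and SNRPG, the 3 being both U343 assays and U251 total RNA. The limit on HNRNPA1 counts given above applies here too. Of all 12267 genes tested in these 3 experiments 950 fell in all 3, or 7.74%, beside 9 of 73 members. These 9 are the overlap of the 21 members that fell in U251 total RNA with the 12 that fell in U343 total RNA among the 73 tested in both, or 42.9% and 75% of those lists. Over all 12458 genes tested in both, the overlap was 26.5% of the genes that fell in U251 and 58.2% of those that fell in U343. Of the 7 members that rose in U343 PABP-bound RNA, 6 also rose in U251 total RNA, where 22 rose, or 85.7% and 27.3% of those lists, beside 51.2% and 53.2% over the 12331 genes tested in both. A set of 15 members was not called in any experiment, among them SF3B1, SF3B2, PRPF6 and U2AF2. The share of all genes not called in any experiment was not counted, so this number is a description only.

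The study used a different rule, which compared each control library with each miR-137 library by Fisher's exact test and required an odds ratio above 2 with an adjusted p under 0.001 in all 4 pairs. Such a test treats every read as independent and ignores how far libraries of 1 group lie apart. By this rule SNRPE fell in U343 total RNA, with control to miR-137 odds ratios of 5.21 to 5.50, in U343 PABP-bound RNA, with 4.34 to 4.91, and in U251 PABP-bound RNA, with 2.06 to 2.26. SFRS12IP1 met the rule in U343 total RNA with odds ratios of 2.01 to 2.54, and PRPF8 in U343 PABP-bound RNA with 2.11 to 2.41. The members that fell by this rule were thus 2 in U343 RNASeq, 2 in U343 RIPSeq and 1 in U251 RIPSeq. No member fell by it in U251 RNASeq, and with TMM-scaled library totals 1 fell in U343 RNASeq in place of 2. Over all genes 2.88% fell by the rule in U343 RNASeq, 3.40% in U343 RIPSeq, 1.49% in U251 RIPSeq and 2.21% in U251 RNASeq.

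The mirrored rule for rises, with odds ratios below 1 meaning higher after miR-137, named 6 members in U251 RNASeq and 2 in U251 RIPSeq. In U251 RNASeq these were SNRPC at 0.166 to 0.239, SF3A2 at 0.164 to 0.414, HNRNPUL2 at 0.143 to 0.434, HNRNPR at 0.423 to 0.472, SF3B4 at 0.318 to 0.478 and SFRS15 at 0.330 to 0.492. In U251 RIPSeq they were SNRPC at 0.152 to 0.213 and SNRPA1 at 0.273 to 0.440. Neither U343 assay gave a rise among the members, and with TMM-scaled library totals the U251 RNASeq count was 2 in place of 6. Over all genes 6.14% rose by the rule in U251 RNASeq, 3.47% in U251 RIPSeq, 1.51% in U343 RNASeq and 4.83% in U343 RIPSeq. With a library left out only the pairs without it had to pass. The counts that follow could therefore only stay or rise, and do not test dependence on that library. Without control library 1 or miR-137 library 1 the count in U251 RNASeq was 12. In U251 RIPSeq 5 members rose and 2 fell without control library 1, 9 rose and 8 fell without control library 2, and 2 fell without miR-137 library 1.

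The change with miR-137 differed between the lines for 16 of the 76 members tested in total RNA, in each case towards a lower value in U343. That is 21.1% of the members, while over all genes 12.7% differed in that direction and 12.5% in the other. In the other direction 0 members passed edgeR's test, while 26 in either direction had an unadjusted p under 0.05 and DESeq2 called 1. SNRPC had the largest call relative to its error, with a U343 minus U251 difference in log2 fold change of -1.89 ± 0.20 (edgeR adjusted p = 0.00111). HNRNPR followed with -1.16 ± 0.16 (edgeR adjusted p = 0.00234), since it rose in U251 and was at 185 and 180 against 153 and 154 CPM in U343. For HNRNPA3 the difference was -0.93 ± 0.17 (edgeR adjusted p = 0.00614), with log2 fold changes of 0.25 in U251 and -0.67 in U343. For SNRPE, which fell in both lines, it was -1.15 ± 0.21 (edgeR adjusted p = 0.0072). The count of 16 was 9 without U251 control library 2, 10 without either U251 miR-137 library, and 6 and 8 without U343 control libraries 1 and 2. In PABP-bound RNA 1 of 77 members differed, SNRPC at -2.48 ± 0.25 (edgeR adjusted p = 0.0098), with 14 at an unadjusted p under 0.05, while 1.22% of all genes differed in that direction and 2.06% in the other. That call was lost, with an adjusted p of up to 0.144, when 1 of 6 of the 8 libraries was left out, and without U251 control library 1 or 2 the count became 25 or 34 lower and 8 or 21 higher. These differences use the same libraries as the changes given above and cannot be told apart from the difference in library preparation between the lines.

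**Figure D4:**
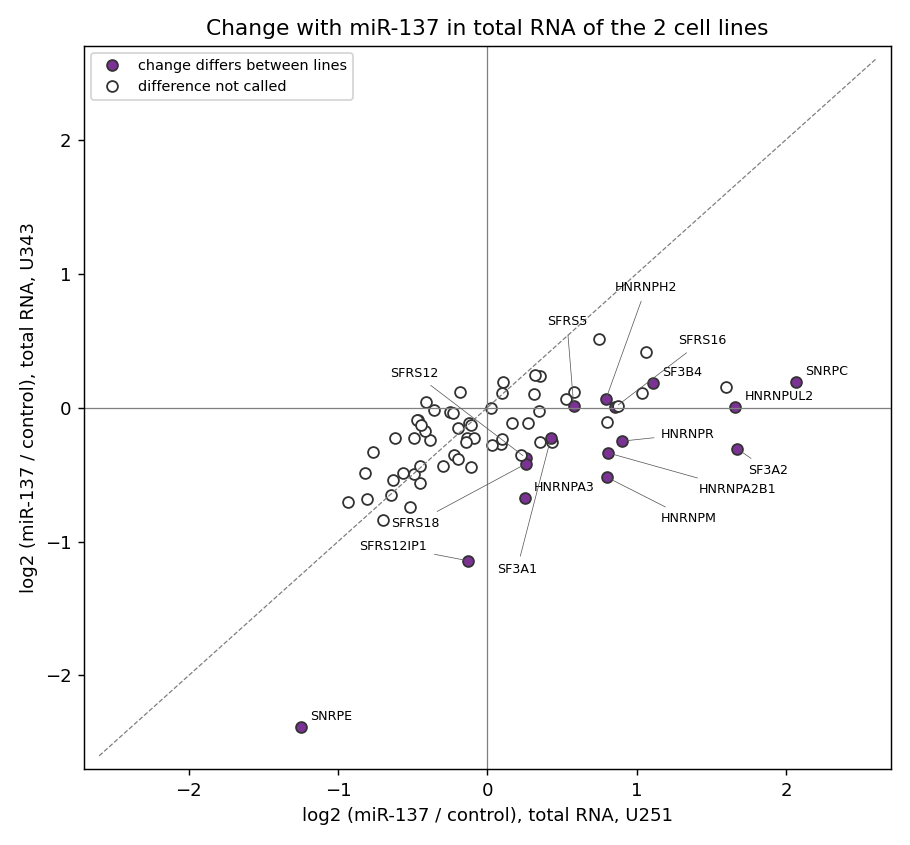
Log2 fold change of miR-137 against control in total RNA of U251 (x axis) and U343 (y axis) for members tested in both lines. Purple points are members whose change differed between the lines by edgeR's interaction test, white points are the others, and the dashed line marks equal change. SNRPC lies at 2.07 in U251 and 0.19 in U343, and SNRPE at -1.25 and -2.39.

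No member was called for a different change in PABP-bound than in total RNA. In U251 0 of the members passed edgeR's interaction test, with 9 at an unadjusted p under 0.05 and 0 called by DESeq2, and 0.134% of all genes passed. In U343 0 passed, with 13 at an unadjusted p under 0.05 and 1 called lower by DESeq2, and 0.00649% of all genes passed. Without U251 RIPSeq control library 1 or 2 the U251 counts were 3 or 25 lower and 7 or 25 higher, and without U343 RNASeq miR-137 library 2 the U343 counts were 4 and 4.

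Apart from miR-137, the control libraries show which of these mRNAs were over- or under-represented in the PABP-bound fraction. These contrasts share their control libraries with those above. In U343 30 of 80 members were higher in PABP-bound than in total RNA and 21 were lower, beside 24.4% higher and 24.2% lower over all genes, or 37.5% and 26.3% of the members. The median log2 ratio of PABP-bound to total was 0.13 for the members and -0.02 for all genes. By role, 13 of 24 hnRNPs were higher and 2 lower, with a median of 0.34, and all 3 SF3A genes were higher, with a median of 0.89. SR proteins went the other way, with 5 of 11 lower and a median of -0.20, as did the remaining PRPF genes, with 4 of 8 lower and 1 higher. HNRNPD, also known as AUF1, a protein that binds AU-rich sequence and promotes mRNA decay, was at 39.6 and 44.5 CPM in total RNA and at 144 and 134 CPM in PABP-bound RNA, a log2 ratio of 1.72 ± 0.09 (edgeR adjusted p = 1.59e-05). SF3A2 was at 13.2 and 17.2 against 59.5 and 69.5 CPM, a ratio of 2.09 ± 0.14 (edgeR adjusted p = 4.66e-05). Both were several times more abundant, relative to all other genes, in the PABP-bound libraries. HNRNPA3P1, a pseudogene with few reads, was at 0.189 and 0.409 against 1.69 and 1.13 CPM, a ratio of 2.27 ± 0.40 (edgeR adjusted p = 0.00272), and may share reads with HNRNPA3.

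The lowest ratios in U343 belonged to SFRS18, PRPF4B and SFRS12IP1. SFRS18, now named PNISR, an SR-related nuclear protein, was at 62.6 and 68.0 CPM in total RNA and at 30.7 CPM in both PABP-bound libraries, a log2 ratio of -1.09 ± 0.08 (edgeR adjusted p = 6.27e-05). PRPF4B was at 77.9 and 74.5 against 37.1 and 34.7 CPM, also -1.09 ± 0.08 (edgeR adjusted p = 5.91e-05). SFRS12IP1 was at 14.7 and 13.2 against 8.19 and 5.43 CPM, or -1.03 ± 0.19 (edgeR adjusted p = 0.00314). In the miR-137 libraries in place of the controls, 7 members were lower in place of 21, and these 3 calls were lost, with adjusted p-values of 0.0798, 0.055 and 0.0531.

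In U251 5 of 73 members were higher in PABP-bound RNA and 1 was lower, beside 7.87% and 6.14% of all genes. U2AF1 and U2AF2 encode the subunits of U2AF, which reads the 3′ end of the intron. U2AF2 was at 114 and 91.0 CPM in total RNA and at 463 and 279 CPM in PABP-bound RNA, a log2 ratio of 1.85 ± 0.38 (edgeR adjusted p = 0.0337). U2AF1 was at 14.6 and 9.10 against 94.9 and 31.9 CPM, a ratio of 2.42 ± 0.59 (edgeR adjusted p = 0.0446). SF3A2 was at 14.8 and 9.37 against 80.4 and 34.5 CPM, a ratio of 2.25 ± 0.51 (edgeR adjusted p = 0.0397). The PABP-bound libraries were above the total RNA libraries for all 3 genes, with a wide gap between the PABP-bound libraries themselves. The gene that was lower was again SFRS18, at 83.0 and 75.1 against 36.0 and 27.4 CPM, a ratio of -1.32 ± 0.33 (edgeR adjusted p = 0.0473). Of the 5 genes that were higher in U251, 4 were also among the 28 higher in U343 of the 73 tested in both, namely SF3A2, SF3B4, U2AF1 and U2AF1L4. Over all 12535 genes tested in both, 60.3% of those higher in U251 were higher in U343. In the miR-137 libraries in place of the controls, the U251 ratio was 1.28 for U2AF2 (edgeR adjusted p = 6.83e-06), 0.57 for SF3A2 (0.0159) and 0.55 for U2AF1, whose call was lost (0.0678). With no filter on low counts the calls of U2AF2, SF3A2 and U2AF1 were lost, at adjusted p-values of 0.099, 0.108 and 0.123. Without U251 RNASeq control library 1 or 2 the U251 count was 0 in each direction, with 23 at an unadjusted p under 0.05 when all libraries were used and 5 lower and 13 higher by DESeq2. Without U251 RIPSeq control library 1 or 2 it was 21 or 29 lower and 19 or 29 higher, beside 3564 or 5459 lower and 3695 or 5709 higher of 13220 or 14711 genes.

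**Figure D5:**
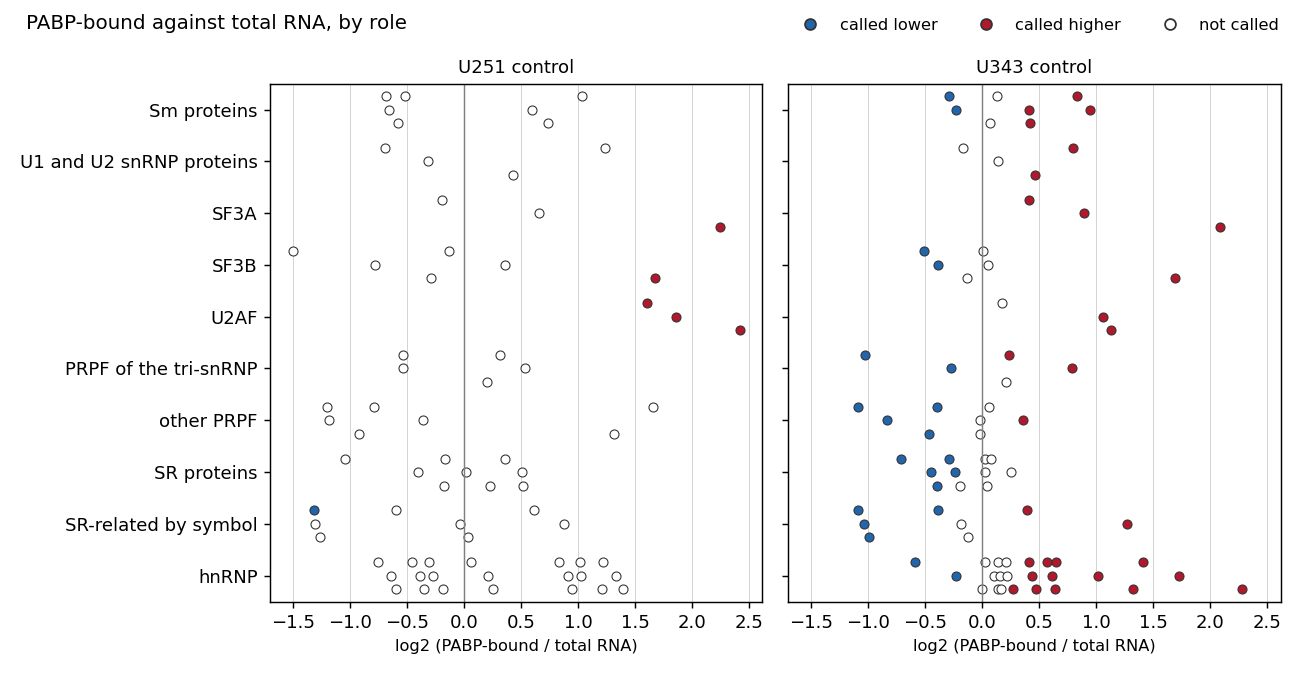
Log2 ratio of PABP-bound to total RNA in the control libraries for every tested member, by role, with 1 panel for each cell line. Blue points were called lower in PABP-bound RNA, red points higher and white points not called by edgeR at an adjusted p of 0.05. In U343 30 points are red and 21 blue, with 13 red points among the hnRNPs, and in U251 5 are red and 1 is blue.

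The control total RNA of the lines differed for most members. Of 76 tested, 30 were lower and 31 higher in U343 than in U251, or 39.5% and 40.8%, beside 39.9% and 44.9% of all genes, which cannot be told apart from the difference in library preparation. HNRNPF, which with HNRNPH1 belongs to the F/H proteins, was at 858 and 891 CPM in U251 and at 219 and 195 CPM in U343, a log2 difference of -2.08 ± 0.11 (edgeR adjusted p = 2.21e-07). SFRS15 was at 28.7 and 21.3 against 8.43 and 9.42 CPM, or -1.49 ± 0.16 (edgeR adjusted p = 2.69e-05). In PABP-bound RNA the call for SFRS15 was lost, with an adjusted p of 0.0754. In the other direction the leading genes were SNRPN, with 0 reads in both U251 libraries and 4908 and 3853 in U343, HNRPA1L-2, with 0 and 1 against 3160 and 2653 reads, and HNRNPCL1, with 1 and 0 against 73 and 48 reads. All 3 overlap another gene, and HNRNPCL1 had the same number of reads as its overlapping partner LOC649330 in these U343 libraries. How overlaps were counted was not given, so these read numbers do not compare expression between the lines.

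Splicing genes outside the name rule were taken from a list of other snRNP, LSm, Prp19 complex, exon junction complex, SR kinase and regulatory proteins. Of 81 tested in U251 total RNA 23 fell and 16 rose, with a median of -0.10, beside 29.0% lower and 28.7% higher of all genes. Of 84 in U343 total RNA 10 fell and 0 rose, with a median of -0.09, beside 11.7% lower and 8.31% higher of all genes. The scarcity of rises in that experiment was thus not particular to the members. In U343 PABP-bound RNA 27 fell and 19 rose, with a median of -0.06, beside 27.8% and 28.5% of all genes. Among 83 in U251 PABP-bound RNA 0 passed edgeR's test, with 5 at an unadjusted p under 0.05. The LSm proteins, relatives of the Sm proteins that bind U6 RNA and also act in mRNA decay, fell most often, with 4 of 6 in U251 total RNA, 3 in U343 total RNA and 5 in U343 PABP-bound RNA and medians of -0.60, -0.49 and -0.81. LSM5 was at 43.3 and 45.1 against 19.4 and 21.8 CPM in U343 PABP-bound RNA, a change of -1.10 ± 0.09 (edgeR adjusted p = 5.91e-05).

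Of the SR kinases and SR-related genes, 2 fell and 6 rose of 11 in U251 total RNA, 1 fell of 12 in U343 total RNA, and 2 fell and 4 rose of 12 in U343 PABP-bound RNA. SRPK1 was at 96.2 and 95.5 against 41.1 and 46.7 CPM in U343 total RNA, a change of -1.13 ± 0.10 (edgeR adjusted p = 0.00833). Its relative SRPK2 was at 68.3 and 69.2 against 33.1 and 35.2 CPM in U251 total RNA, a change of -1.01 ± 0.13 (edgeR adjusted p = 2.23e-05). Total RNA of U343 had SRPK2 at 96.0 and 86.8 against 57.2 and 80.8 CPM. CLK1, another kinase of SR proteins, rose in U343 PABP-bound RNA from 13.0 and 12.7 to 18.3 and 18.4 CPM, by 0.51 ± 0.09 (edgeR adjusted p = 0.00258). The U343 total RNA call for SRPK1 was lost without control library 1 or 2, at -1.12 or -1.13 with an adjusted p of 0.161 or 0.176.

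Of the remaining related genes, MBNL2, a splicing regulator of development, was at 486 and 568 against 260 and 227 CPM in U251 total RNA, a change of -1.11 ± 0.14 (edgeR adjusted p = 2.36e-05). MBNL2 in U343 total RNA was higher in both miR-137 libraries, at 219 and 193 CPM against 160 and 152 CPM. SRRM2, a scaffold of nuclear speckles, was at 247 and 85.0 against 408 and 567 CPM in U251 total RNA, a rise of 1.55 ± 0.33 (edgeR adjusted p = 0.00137). The controls of SRRM2 were far apart, and DESeq2, the joint fit and the fit with no filter did not call it. The joint fit did not call MBNL2 or SRPK2 in U251 total RNA, with adjusted p-values of 0.197 and 0.0593. PNN, a protein of the exon junction complex, was at 86.7 and 87.6 against 43.7 and 55.7 CPM in U343 total RNA, a change of -0.81 ± 0.14 (edgeR adjusted p = 0.0281), and its call was lost without control library 1 or 2, at -0.81 or -0.80 with an adjusted p of 0.233 or 0.252. CASC3, also of that complex, rose in U343 PABP-bound RNA from 75.0 and 77.6 to 109 CPM in both libraries, by 0.51 ± 0.08 (edgeR adjusted p = 0.000974). ESRP1, an epithelial splicing regulator with few reads here, was at 1.40 and 1.33 against 0.307 and 0.332 CPM there, a change of -2.08 ± 0.26 (edgeR adjusted p = 0.00037).

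Promoters were read for what the genes share beyond their names. Of the 80 symbols 69 matched a RefSeq promoter (GRCh38.p14, 250 bases before to 50 bases after the start). The letters CCGGAAG, the core that ETS factors recognise, or their reverse complement CTTCCGG, occurred in 26 of these 69 promoters, or 37.7%, and in 10.7% of all 27305 promoters of the same length. The 27305 were not limited to genes expressed in these lines, and a comparison with expressed genes alone was not made. By the calls in U343 PABP-bound RNA the letters were in 7 of 30 promoters of genes that fell, in 4 of 5 of genes that rose and in 15 of 34 of genes not called. A match is a run of letters and not a site shown to be bound. The stretches of 30 bases with the match in capitals are given for some of the named genes with a match before the start. Each is read 5′ to 3′ on the strand of the gene. SNRPA, PRPF8, SFRS1, HNRNPA1, HNRNPH1 and HNRNPAB, also described in full above, gave no such stretch.
SNRPE (chr1:203861597-203861626, plus strand): ttctttattCCGGAAGttgctctcagaggc
SNRPG (chr2:70293490-70293519, minus strand): cttcatttcttCTTCCGGtccgaggtcgcc
SNRPC (chr6:34757283-34757312, plus strand): aatacgctcttCCGGAAGcaccgacaaaca
SNRPA1 (chr15:101295343-101295372, minus strand): gcgcgccacgaCTTCCGGcaagaacgcccc
SF3A2 (chr19:2236794-2236823, plus strand): agagggcccgtctcatttgccCCGGAAGtg
The match began 241 bases before the start in SNRPE, 211 in SNRPC, 113 in SNRPA1, 50 in SNRPG and 9 in SF3A2. In SNRPC the match in the other direction overlaps the one shown. Genes that fell, such as SNRPE, and genes that rose, such as SNRPA1, both carried it.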

How the data were processed

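Per the authors' methods, alignment used RMAP with build hg18, and reads were tallied per gene, over all of its RefSeq isoforms together. The deposited values are raw read counts per gene, without normalization, and were checked to be whole numbers. How the authors assigned reads on overlapping genes or repeats is not given in the sources used here, and strand was not used. Groups follow the labelled line, assay and mimic. A further U251 replicate named in the methods was not analysed here.

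The 16 tables were fitted per experiment with edgeR 4.0.16 in R 4.3.3 (TMM factors, filterByExpr, quasi-likelihood test, Benjamini-Hochberg over all genes tested, threshold 0.05), which was tested on simulated data. Of 200 genes changed 4-fold there, it recovered 97.5% in U251 RNASeq, 31.5% in U251 RIPSeq, 85% in U343 RNASeq and 95% in U343 RIPSeq. In the same order it recovered 195, 63, 170 and 190 genes and falsely called 18, 3, 29 and 19 unchanged genes. Smaller changes, which include most of those reported above, were not simulated. For the assay interaction it recovered 43% in U251 and 74% in U343. For the line interaction it recovered 78.5% in RNASeq and 29.5% in RIPSeq. Where recovery was low, a gene not called may still have changed. CPM values use the TMM factors of the fit they belong to. Each SE is the size of the log2 fold change divided by the square root of edgeR's F statistic. That statistic draws its measure of spread from all genes and not from the libraries of 1 gene alone. A symbol listed on more than 1 line was kept once, with the first line. The study's rule was recomputed with two-sided Fisher's exact tests (SciPy 1.17.1), and intervals and tests on reads cover counting error only. DESeq2 1.42.0, upper-quartile factors, no filter, a joint fit, a replicate block and leaving out each library were alternatives.

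Members and gene lists were chosen with earlier results of these data known, and the list of SFRS symbols outside the SR family was added after the tables were seen. Named in the text were, per experiment, the 3 largest falls and 3 largest rises among called members that moved 1 way in all 4 pairs and averaged 50 or more reads in the higher group; members meeting the study's rule; up to 8 called in 3 experiments; members with opposite calls; the extremes of the PABP-bound to total ratio; the leading interactions; and the leading related genes. The match CCGGAAG and U2AF1L4, HNRNPU and SNRPD1 in lists of overlap were named after their values were seen. Some genes that the rule names are not reported here.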

Additional observations from a re-analysis of the deposited data

Results flagged for a closer look

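For 16 members the change with miR-137 in total RNA differed between the lines by edgeR's interaction test (U343 minus U251, on the log2 scale, adjusted p under 0.05). SNRPC differed by -1.89 (2.07 in U251 and 0.19 in U343). SF3A2 differed by -1.99 (1.68 and -0.31) and HNRNPUL2 by -1.67 (1.66 and 0.00). HNRNPM differed by -1.32 (0.80 and -0.52), HNRNPR by -1.16 (0.90 and -0.25) and HNRNPA2B1 by -1.15 (0.81 and -0.34). SNRPE differed by -1.15 although it fell in both lines (-1.25 and -2.39), and SFRS12IP1 by -1.02 (-0.13 and -1.14). HNRNPA3 differed by -0.93 (0.25 and -0.67), SF3B4 by -0.93 (1.11 and 0.18) and SFRS16 by -0.86 (0.86 and 0.00). Smaller differences were found for HNRNPH2 at -0.74 (0.79 and 0.06), SFRS18 at -0.69 (0.26 and -0.42), SF3A1 at -0.66 (0.43 and -0.23), SFRS12 at -0.64 (0.26 and -0.37) and SFRS5 at -0.58 (0.58 and 0.01). In PABP-bound RNA SNRPC differed by -2.48 (2.39 in U251 and -0.15 in U343). Line and library preparation cannot be told apart in these values, and groups of 2 libraries were too small for a search for outlying samples.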

How the results depend on the processing

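Counts are members lower and higher; the cause of each move was not tested, except that leaving out a library or using no filter changes the samples or genes tested. In U251 total RNA (21 and 22) no filter gave 14 higher, and the joint fit of the line's 8 libraries 4 and 8. In U251 PABP-bound RNA (0 and 1) DESeq2 gave 2 and 2, the joint fit 5 and 6, and upper-quartile factors or no filter 0 higher. In U343 total RNA (15 and 1) DESeq2 gave 2 higher, no filter 0 higher and the joint fit 30 and 2. In U343 PABP-bound RNA (34 and 7) the joint fit gave 4 higher. For PABP-bound against total RNA, U251 (1 and 5) gave 5 and 13 with DESeq2, 0 and 0 with no filter and 23 and 23 in the miR-137 libraries, and U343 (21 and 30) gave 7 lower in the miR-137 libraries. DESeq2 called 1 member lower in the U343 assay interaction, 1 higher in the total RNA line interaction and 6 lower and 2 higher in the PABP-bound line interaction (1 and 0). The RIPSeq controls in place of the RNASeq controls gave 5 and 13 between the lines (30 and 31). An odds ratio of 1.5 in the study's rule gave 2 and 13 in U251 RNASeq (0 and 6), 3 and 7 in U251 RIPSeq (1 and 2), 7 lower in U343 RNASeq (2) and 5 and 1 in U343 RIPSeq (2 and 0), and TMM-scaled totals gave 2 higher in U251 RNASeq and 1 lower in U343 RNASeq.

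When single libraries were left out (the lone library of a group was assumed to vary like the others), lower and higher members ranged from 12 to 22 and 15 to 22 in U251 total RNA, 0 to 30 and 0 to 35 in U251 PABP-bound RNA, 0 to 29 and 0 to 4 in U343 total RNA, and 22 to 27 and 4 to 6 in U343 PABP-bound RNA. PABP-bound against total RNA ranged from 0 to 29 in each direction in U251, and from 15 to 17 and 26 to 30 in U343. The assay interactions ranged from 0 to 25 in each direction in U251 and 0 to 4 in U343, the line interactions from 6 to 23 and 0 to 1 in total RNA and 0 to 34 and 0 to 21 in PABP-bound RNA, and the lines' controls from 24 to 32 and 28 to 34. By the study's rule leaving a library out drops its pairs, which could only keep or raise a count. The ranges there were 0 to 1 and 7 to 12 in U251 RNASeq, 1 to 8 and 2 to 9 in U251 RIPSeq, 2 to 2 and 0 to 0 in U343 RNASeq, and 2 to 3 and 0 to 0 in U343 RIPSeq.

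Replicate numbers are shared across groups, but nothing in the labels pairs them, and the correlation of replicate differences was 0.09, -0.14, 0.11 and 0.45 in U251 RNASeq, U251 RIPSeq, U343 RNASeq and U343 RIPSeq, and 0.20 and -0.27 for PABP-bound against total RNA in U251 and U343. A replicate block gave 1 lower in U251 PABP-bound RNA, 10 lower and 0 higher in U343 total RNA and 7 lower and 11 higher for U251 PABP-bound against total RNA. The calls it ended in U343 total RNA among the genes named there were SNRPA1 (0.51, edgeR adjusted p = 0.0632), HNRNPH1 (-0.49, 0.0609), SNRPG (-0.485, 0.0579) and HNRNPM (-0.52, 0.0695). Crossed numbers, an alternative chosen after seeing the data, gave 1 and 2 in U251 PABP-bound RNA.

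Of 710 values of named genes under alternatives, 603 kept direction and side of the threshold, 81 lost the call, 23 gained it and 3 reversed. The reversals were in U251 PABP-bound RNA: HNRNPM, 0.07 with all libraries, was -0.041 with upper-quartile factors and ranged from -0.15 to 0.45 with a library left out (-0.15 without control library 2), and SFRS1, 0.10 with all libraries, ranged from -0.39 without control library 1 to 0.905 without control library 2. Depth limits most the members with few reads, such as HNRNPCL1 and HNRNPA3P1.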
